A study of Saccharomyces cerevisiae with 9 samples.

Results

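The region described here is the promoter-proximal part of external transcribed spacer 1 (ETS 1) of the yeast ribosomal DNA. It was chosen by position alone, as positions 1 to 350 of the 35S repeat counted from the transcription start site, and all 350 positions are accounted for. The repeat has 6858 positions in all, of which 1504 lie in spacers and 700 in ETS 1. RNA polymerase I (Pol I) was mapped with NET-seq (native elongating transcript sequencing). Here tagged Pol I is pulled down and the 3′ end of the attached RNA marks the last incorporated nucleotide. The libraries came from Saccharomyces cerevisiae cultures in YPD harvested in the early, mid and late log subphases of growth, with 3 biological replicates each. All cultures were of 1 strain, labelled WT yeast, of mating type a with marker alleles of the genes ADE2, URA3, TRP1, LEU2, HIS3 and CAN1. The Pol I subunit gene RPA135 carried an HA and His tag in every library, and no untagged strain or mutant was included, so the subphases differ in culture density alone by their labels.

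Pol I makes one long precursor RNA, and the 18S, 5.8S and 25S rRNAs are cut out of it. ETS 1 is the first stretch that Pol I transcribes. It is bound by the UtpA complex and base-pairs with the U3 small nucleolar RNA while the small ribosomal subunit is being assembled, and it is then removed and degraded. A read in this spacer therefore does not come from finished rRNA, whereas reads in the mature rRNA regions include finished rRNA that comes down with the polymerase. The paper takes spacer reads as nascent rRNA only. Whether some of them came from spacer RNA that was being degraded was not tested. Pol I pauses at some positions more than at others, which a NET-seq profile shows as peaks.

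The region lies on chromosome XII at chrXII:467220-467569 on the minus strand of the R64 assembly, inside ETS1-2 of the 35S precursor gene RDN37-2. The assembly holds 2 copies of the repeat, the first part of the other one (ETS1-1) differs from it by 0 bases, and reads cannot be assigned to a copy. The region holds 93 A, 55 C, 94 G and 108 U. The nascent RNA of the first 100 positions (chrXII:467470-467569, minus strand) and of stretches that hold some of the positions named below are shown 5′ to 3′. The positions listed with each stretch are in capitals. Not all of them are local peaks: 229, 280, 327 and 328 were a peak in no library. They are shown because several of the results are shifts of occupancy between bases a few nucleotides apart.
Positions 1 to 100, with 40, 57, 78, 80 and 98 in capitals: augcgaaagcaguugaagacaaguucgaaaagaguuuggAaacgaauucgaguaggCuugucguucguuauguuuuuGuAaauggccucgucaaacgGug
Positions 83 to 136 (chrXII:467434-467487), with 98, 102, 113, 120 and 121 in capitals: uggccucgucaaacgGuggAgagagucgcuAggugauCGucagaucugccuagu
Positions 211 to 247 (chrXII:467323-467359), with 226, 229, 231 and 232 in capitals: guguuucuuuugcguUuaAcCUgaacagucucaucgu
Positions 245 to 298 (chrXII:467272-467325), with 260, 279, 280 and 283 in capitals: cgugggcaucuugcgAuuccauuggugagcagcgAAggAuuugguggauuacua
Positions 310 to 351 (chrXII:467219-467260), with 325, 327, 328 and 336 in capitals: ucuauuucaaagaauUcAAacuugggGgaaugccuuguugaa

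The values are RPM, reads per 1000000 of the reads on the repeat up to the terminator T1, so they are shares of one repeat and hold no information on the total Pol I per cell. Depth on the repeat ranged from 350940.0 to 7307420.5 reads. The region itself held 22744, 140836 and 7040 reads in early log replicates 1, 2 and 3. It held 135174, 34434 and 26835 reads in the mid log libraries, and 9550, 8992 and 3917 reads in the late log libraries. Late log replicate 3 was the thinnest, with a median of 5 reads per position. The libraries were sequenced on 3 runs: all mid log libraries on 1 run of their own, all late log libraries with early log replicate 1 on another, and early log replicates 2 and 3 on the third. Mid log and its run cannot be told apart. Late log can be set against early log within a run only through early log replicate 1.

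The region's share of the reads on the repeat was lower in late log than in early log, and mid log was split. Reads from finished rRNA are part of that denominator and their amount was not measured, so the share is not a measure of Pol I alone. The region held 1.37%, 3.02% and 2.01% of the 35S reads in the early log libraries (2.13% ± 0.834, SD, n = 3). In mid log it held 2.23%, 0.471% and 0.374% (1.02% ± 1.04), and in late log 0.433%, 0.539% and 0.302% (0.424% ± 0.119). Every late log value was below every early log value, while mid log replicate 1 lay among the early log libraries and mid log replicates 2 and 3 among the late log ones. Across the 3 subphases the shares did not pass the exact permutation test (F = 4.93, p = 0.0857, two-sided, and p = 0.148 after adjustment over the 19 windows of 350 positions that tile the repeat). Leaving out mid log replicate 1 gave an exact p of 0.0357. Late log over early log gave a log2 difference of -2.30 (exact p = 0.10, the smallest that 3 against 3 libraries can give). The difference was -1.73 against early log replicate 1 alone, which shared the run of late log. For mid log over early log it was -1.47 (exact p = 0.30), and for late log over mid log -0.83 (exact p = 0.50). By its late over early log difference the region ranked 2 of the 19 windows, next to the distal part of ETS 1 (positions 351 to 700, -2.59), and the median window had -0.01. Wilson 95% intervals of the single shares were at most 0.0464 percentage points to either side, for counting error only.

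As a share of the spacer reads more than 20 positions away from the mature rRNAs, the region differed less between subphases. Its own reads were a large part of that denominator, which by itself narrows such differences. The region held 38.7%, 45.1% and 35.1% of those reads in early log, 45.9%, 38.7% and 36.7% in mid and 32.8%, 33.3% and 28.1% in late log. The late log values lay below all others. With that denominator mid log over early log was 0.03 on the log2 scale (exact p = 0.80) and late log over early log -0.33 (exact p = 0.10), and the 3 subphases did not pass the exact test (p = 0.0857). This rested on leaving out the positions near the mature rRNAs. Of all spacer reads the region held 31.9%, 37.6% and 27.9% in early log, 37.6%, 12.9% and 11.3% in mid and 17.0%, 17.5% and 12.3% in late log. By that share mid log was split as in the level.

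Relative to the distal part of ETS 1, the promoter-proximal part held more reads in mid log than in the other subphases. The ratio of the proximal to the distal part was 1.19, 1.40 and 1.05 in early log (1.21 ± 0.178, SD, n = 3), 1.96, 2.04 and 1.95 in mid (1.99 ± 0.0468) and 1.58, 1.47 and 1.39 in late log (1.48 ± 0.0918). The mid log ratios lay above all others and close together, including that of replicate 1, whose level was like early log. The ratios differed across subphases (F = 22.3, exact permutation p = 0.00714, adjusted over 3 measures of shape p = 0.0107, two-sided). Mid log over early log was 0.72 on the log2 scale and late log over mid log was -0.43, both without overlap (exact p = 0.10 each). Late log over early log was 0.30 (exact p = 0.20), with overlapping libraries, and 0.32 within the shared run.

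Within the region, the first 100 positions took a larger share of the reads in the later subphases. The first 100 positions held 17.0%, 23.8% and 18.7% of the region's reads in early log (19.8% ± 3.56), 32.7%, 34.3% and 30.2% in mid (32.4% ± 2.09) and 29.2%, 28.1% and 28.7% in late log (28.7% ± 0.589). No 2 subphases overlapped (exact permutation p = 0.00357, the smallest over 3 groups of 3, adjusted p = 0.0107). Much of this difference lay at positions 78 and 80. These held 4.34% ± 2.82 of the region's reads in early log, 12.2% ± 1.16 in mid and 9.68% ± 0.0587 in late log. The first 50 positions had another order. They held 4.09%, 5.17% and 4.67% in early log, 3.71%, 3.71% and 3.53% in mid and 7.39%, 7.68% and 8.20% in late log (exact permutation p = 0.00357), so the late log libraries were the high ones there and the mid log libraries the low ones. Within the shared run, late log minus early log replicate 1 was 11.7 percentage points over the first 100 positions and 3.67 over the first 50. The position by which 50% of the region's reads had been counted was 163, 165 and 175 in early log, 145, 134 and 145 in mid and 149, 163 and 141 in late log (exact permutation p = 0.0357, adjusted p = 0.0357). This last measure rested on a few high positions: with the 5 highest positions left out its exact p was 0.411.

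**Figure D1:**
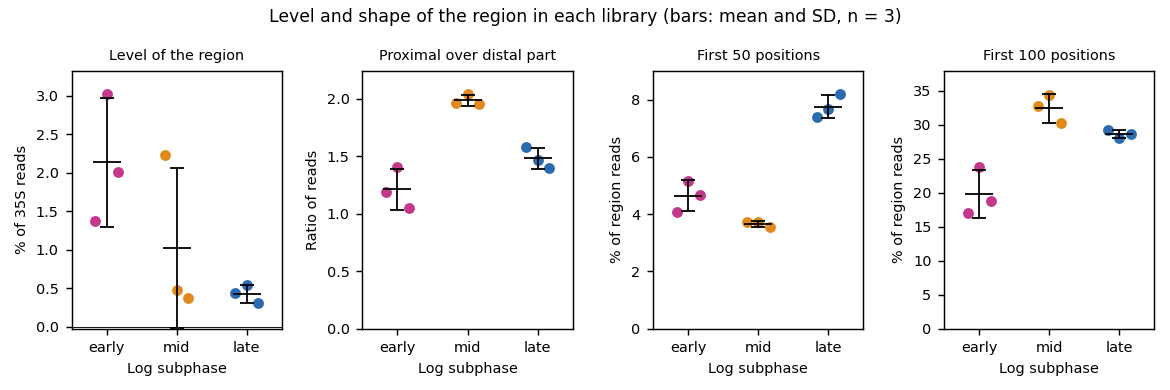
Share of 35S reads in the region (%), ratio of reads in its proximal over the distal part of ETS 1, and share of the region's reads (%) in its first 50 and first 100 positions, by log subphase. Each point is a library and bars are the mean and SD of 3; the level splits mid log (2.23% against 0.471% and 0.374%), whereas the ratio and the first 100 positions keep its 3 libraries together.

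Windows of 50 positions showed which stretches carried these shifts. The windows, and the single positions below, are in RPM and so share the denominator of the level, finished rRNA included. In late log all 7 windows of the region fell against early log (limma, adjusted p under 0.05, against 44.1% of all windows of the repeat that fell). The fall was not particular to the region: all 7 windows of the distal part of ETS 1 fell, and 25 of the 30 windows that start in a spacer. The region's log2 changes from the start site on were -1.42 ± 0.37 (SE), -1.76 ± 0.42, -2.38 ± 0.23, -2.36 ± 0.39, -2.60 ± 0.33, -2.41 ± 0.30 and -2.13 ± 0.40, with limma adjusted p between 0.000426 and 0.0137. The fall was smallest in the first window and largest in the fifth, positions 201 to 250. With the sequencing run as a term, which leaves early log replicate 1 as the only early log library compared and assumes that it varies like the others, 6 of the 7 windows passed.

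In mid log 0 of the 7 windows passed against early log with limma (2 had an unadjusted p under 0.05), where 11.8% of all windows fell. The log2 changes lay between -1.76 and -1.46 in 6 windows, and that of positions 51 to 100 was -0.51 ± 0.74 (adjusted p = 0.583). Without mid log replicate 1, 6 windows passed. In late log against mid log, 0 windows passed with limma and 0 had an unadjusted p under 0.05, where 23.0% of all windows fell and 26.7% rose, and without mid log replicate 1 2 windows passed. Positions 51 to 100 held 15.2% ± 3.05 of the region's reads in early log, 28.8% ± 2.00 in mid and 20.9% ± 0.814 in late log, the widest spread of any window between subphases. This window holds positions 78 and 80, where much of that spread lay.

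**Figure D2:**
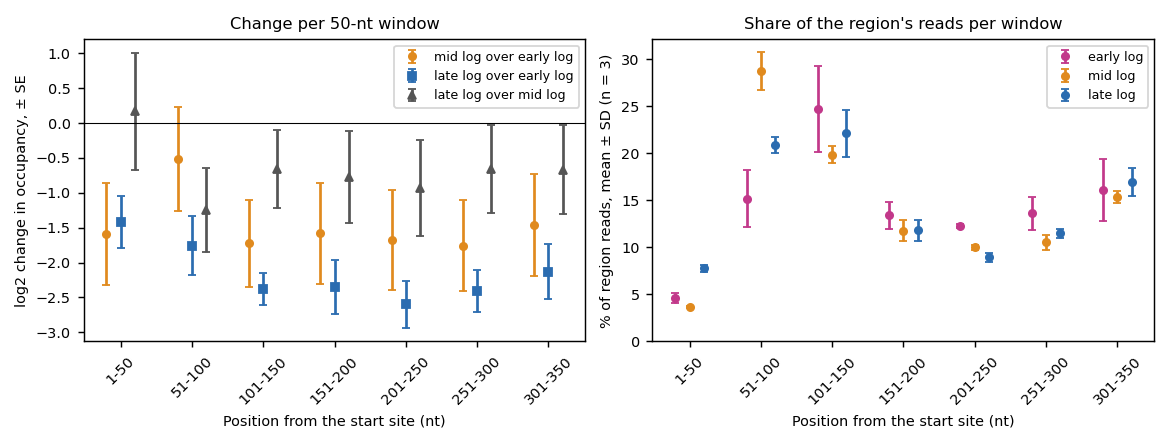
Left, log2 change in occupancy (limma, ± SE) of each 50-nt window for the 3 pairs of subphases; right, share of the region's reads in each window (%, mean ± SD, n = 3). All late over early log changes lie between -2.60 and -1.42, and the window of positions 51 to 100 stands out in mid log with 28.8% of the reads.

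The first positions were nearly empty. Positions 1 to 11 together held 1, 12 and 0 reads in the early log libraries, 15, 13 and 11 in mid log and 2, 1 and 1 in late log. Position 1, the annotated start, held no read in early or late log and 0.165, 0.137 and 0.418 RPM in mid log, which is at most 3 reads. Positions 5 (G), 7 (A) and 8 (A) were at 0 in all 9 libraries and entered no test. With 3 reads as the limit that a count of 0 allows, that bounds them at 0.411 RPM where depth was greatest and at 8.55 RPM where it was least. This bound is for depth only. A read that ends at position 11 or before holds at most 11 bases counted from the start site. Whether reads so short were kept through size selection and alignment was not tested, so the low counts cannot be read as few polymerases.

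Counts of reads first rose at positions 12 and 13, and at 19, where the same limit on short reads holds. Positions 12 and 13 held 0.220% ± 0.0273 of the region's reads in early log, 0.0705% ± 0.00889 in mid and 0.132% ± 0.0688 in late log. Position 12 (G) had 24.1, 30.1 and 19.95 RPM in early log, 6.43, 0.547 and 0.696 RPM in mid log and 3.17, 1.80 and 3.08 RPM in late log. Its early log values lay above all others. It fell by 3.24 on the log2 scale in mid log against early log (limma adjusted p = 0.0220) and fell by 2.81 in late log against early log (limma adjusted p = 6.68e-04). The mid log call rests on few reads and was lost without early log replicate 2 or 3, or mid log replicate 2 or 3 (limma adjusted p between 0.0590 and 0.0978). Position 19 was highest in late log as a share of the region's reads, and lowest in mid log like positions 12 and 13. It held 0.189% ± 0.0421 in early log, 0.128% ± 0.0126 in mid and 0.621% ± 0.108 in late log, the last from 28 to 58 reads per library.

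At single positions, the late log libraries were lower nearly throughout. Of 338 positions of the region tested, 223 fell in late log against early log (66.0%) and 0 rose (limma on log2(RPM + 1), adjusted over the whole repeat), where 35.7% of all positions of the repeat fell. The median log2 change was -1.92 in the region and -0.44 over all positions tested. The remaining 12 positions of the region averaged under 1 RPM over the 6 libraries or were at 0. In the distal part of ETS 1, 256 of 347 positions fell. Of the region's positions 65 of 88 A, 34 of 53 C, 64 of 91 G and 60 of 106 U fell. When run was added to the fit, so that early log replicate 1 alone stood for early log, 136 positions passed, of which 134 were lower and 2 higher in late log.

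In mid log against early log, 36 of 337 positions fell and 1 rose (limma), a share of 10.7% lower against 12.7% of all positions of the repeat, so the region did not stand out by this count. The median log2 change was -1.28 in the region and -0.27 over all positions tested. In the distal part of ETS 1, 87 of 346 positions fell. The region's count hung on single libraries. It was 194 without mid log replicate 1, 0 without mid log replicate 2 or 3, and 1 without early log replicate 2 or 3. Each mid over early log call of a position named here was thus lost without mid log replicate 2 or 3, and each but that at 280 without early log replicate 2 or 3. The positions that fell were 14 A, 16 G, 2 C and 4 U. In late log against mid log, 18 of 335 positions fell and 0 rose, where 22.2% of all positions fell and 16.6% rose. That count was 56 without mid log replicate 1 (27 lower and 29 higher), 10 without mid log replicate 2, 42 without mid log replicate 3, and between 4 and 7 without each late log library.

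The profile was made of peaks on a low floor. A local peak was taken as a position of at least 10 reads, the highest within 2 positions to either side and at least 3 times the median of the positions up to 25 away. There were 38, 39 and 35 peaks in the early log libraries, 32, 31 and 33 in mid log and 36, 36 and 34 in late log. Together they fell on 70 positions, and 14 were peaks in all 9 libraries: 40, 57, 98, 102, 163, 175, 195, 226, 260, 279, 283, 309, 325 and 336. Of these 14, 8 were A, 3 G, 2 U and 1 C. The 10 highest positions of each library held 29.0% ± 6.27 of the region's reads in early log, 28.1% ± 1.48 in mid and 27.6% ± 0.0988 in late log, so the reads were about as concentrated in each subphase while the leading positions differed.

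**Figure D3:**
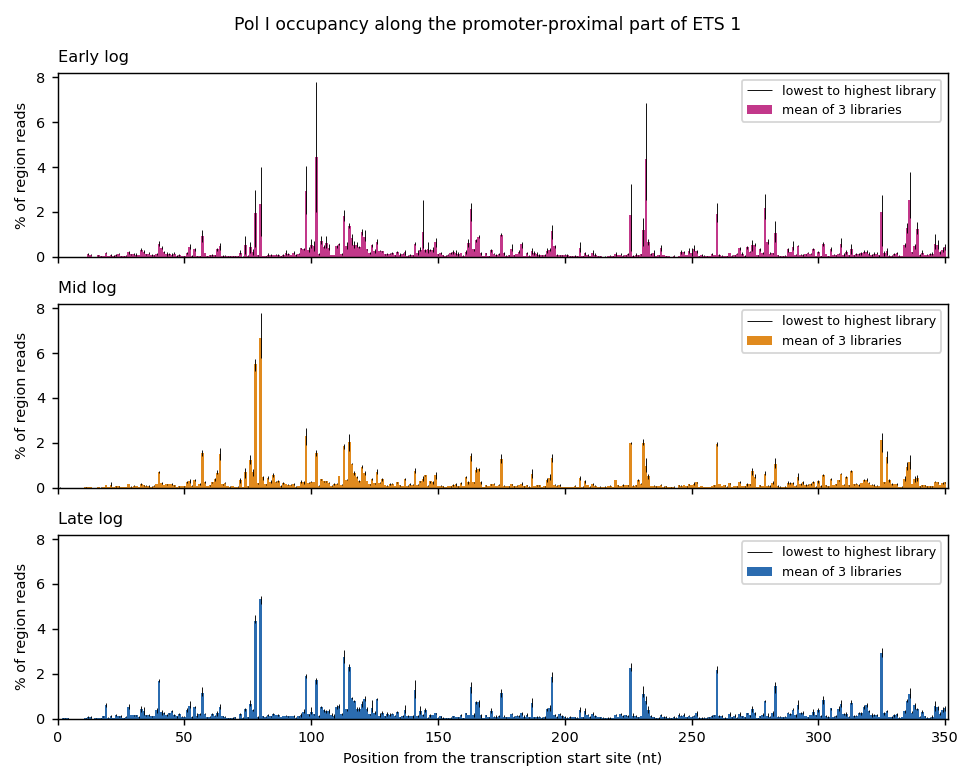
Share of the region's reads (%) at each position from the transcription start site, for early, mid and late log. Coloured bars are the mean of 3 libraries and black lines run from the lowest to the highest library; positions 78 and 80 lead in mid and late log, and positions 102 and 232 have the widest spread in early log.

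The highest pair of positions by mean over all libraries was 80 (A) and 78 (G), just after a run of U. Position 80 had 126, 1206 and 447 RPM in early log, 1436, 366 and 216 RPM in mid log and 221, 289 and 165 RPM in late log. Position 78 had 59.7, 900 and 499 RPM in early log, 1159, 270 and 208 RPM in mid log and 200, 228 and 128 RPM in late log. In both cases early log replicate 1 was the lowest library of all. As a share of the region's reads the pair held 1.35%, 6.96% and 4.72% in early log, 11.6%, 13.5% and 11.4% in mid and 9.72%, 9.61% and 9.70% in late log, with no overlap between subphases. In RPM neither position passed in any pair (limma adjusted p between 0.125 and 0.854). Their late over early log changes of -0.90 at 80 and -0.74 at 78 were 0.79 and 1.58 when only early log replicate 1, the early log library on the run of late log, was set against late log, a comparison with 1 library on one side. Without early log replicate 1 both positions fell (limma adjusted p = 5.94e-04 at 80 and 6.27e-05 at 78), and without early log replicate 2 position 78 had a change of 0.06.

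Position 81 (A), the base after 80, was the 1 position of the region called higher in mid log against early log with all libraries. It had 4.22, 9.67 and 5.70 RPM in early log, 74.7, 25.3 and 20.2 RPM in mid log and 4.53, 4.79 and 3.08 RPM in late log. Every mid log library lay above every other library. The log2 change was 2.27 ± 0.58 in mid log over early log (SE, limma adjusted p = 0.0318) and -2.78 ± 0.49 in late log over mid log (limma adjusted p = 0.00211). The mid over early log call was lost without each early log library and without mid log replicate 2 or 3 (limma adjusted p between 0.0532 and 0.109). Positions 80 and 81 are both A, and the ratio of 80 over 81 was 29.9, 125 and 78.5 in early log, 19.2, 14.5 and 10.7 in mid and 48.7, 60.4 and 53.5 in late log.

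Of the other positions with the largest falls in late log against mid log, 3 were A and lay 2 or 3 bases after a peak at U. They were 229 (A), 327 (A) and 328 (A), after the peaks at 226 (U) and 325 (U), with log2 changes of -3.08 ± 0.67, -2.75 ± 0.49 and -2.78 ± 0.56 (SE, limma adjusted p = 0.00586, 0.00216 and 0.00386). Position 327 had 12.7, 119 and 71.2 RPM in early log, 247, 76.9 and 50.5 RPM in mid log and 13.6, 16.8 and 11.6 RPM in late log. The ratio of 325 over 327 was 5.19, 7.03 and 7.56 in early log, 2.18, 1.44 and 1.17 in mid and 9, 10.1 and 7.13 in late log, again with the mid log libraries apart from the rest. The fifth position by this rule, 64 (U), had 83.9, 162 and 62.7 RPM in early log, 329, 58.0 and 66.1 RPM in mid log and 29.0, 22.2 and 13.9 RPM in late log. It fell by 2.33 in late log against mid log (limma adjusted p = 0.0114), and not without late log replicate 3 (adjusted p = 0.0590). Mid log was alone on its run, so these shoulders and the run cannot be told apart.

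Positions 98 (G) and 102 (A), both peaks in all 9 libraries, changed order between subphases. Position 102 had 1070, 1091 and 405 RPM in early log, 377, 73.2 and 52.6 RPM in mid log and 77.5, 97.6 and 47.0 RPM in late log. Position 98 had 555, 861 and 388 RPM in early log, 592, 108 and 70.9 RPM in mid log and 85.7, 105 and 54.7 RPM in late log. Position 102 was the higher of the pair in all early log libraries and 98 in all others. The ratio of 98 over 102 was 0.519, 0.789 and 0.958 in early log, 1.57, 1.48 and 1.35 in mid and 1.11, 1.07 and 1.16 in late log. In late log against early log position 102 fell by 3.44 (SE 0.38, limma adjusted p = 1.56e-04) and position 98 fell by 2.84 (SE 0.31, limma adjusted p = 1.39e-04).

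A shift by 1 base was found at positions 231 (C) and 232 (U). Position 232 was a peak in all early log libraries and in no other, and position 231 in all mid and late log libraries and in no early log library. Position 232 had 938, 1126 and 510 RPM in early log, 293, 41.9 and 26.4 RPM in mid log and 43.5, 35.3 and 20.02 RPM in late log. Its neighbour 231 had 65.2, 517 and 291 RPM in early log, 423, 101 and 71.3 RPM in mid log and 62.6, 51.5 and 28.5 RPM in late log. The ratio of 232 over 231 was 14.4, 2.18 and 1.75 in early log, 0.694, 0.414 and 0.371 in mid and 0.696, 0.686 and 0.703 in late log. Early log replicate 1, sequenced with the late log libraries, had the highest ratio of all. Position 232 had the largest change of the region at the named peaks, with -4.65 ± 0.34 in late log over early log (SE, limma adjusted p = 2.68e-05) and -3.54 ± 0.78 in mid log over early log (limma adjusted p = 0.0224).

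The same kind of shift, smaller, was seen at 120 (C) and 121 (G). Position 120 was a peak in all early and mid log libraries and in no late log library, and 121 in all late log libraries and no other. Here too only the higher neighbour can be a peak. The ratio of 120 over 121 was 1.49, 1.35 and 1.02 in early log, 1.52, 1.61 and 1.16 in mid and 0.880, 0.775 and 0.538 in late log. All late log libraries were below 1. These ratios of nearby positions were chosen after the values were seen and are given without a test.

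**Figure D4:**
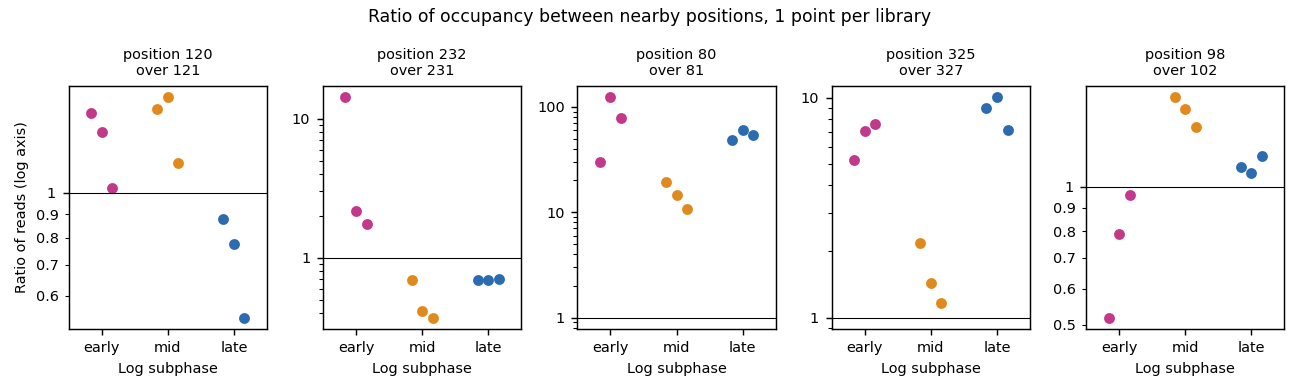
Ratio of reads between nearby positions (log axis), 1 point per library, by log subphase; the line marks a ratio of 1. The ratio of 232 over 231 is above 1 in all early log libraries and below 1 in the other 6, and those of 80 over 81 and 325 over 327 are lowest in mid log.

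Peaks called in all 3 libraries of one subphase and in none of another followed this order. Positions 33, 183, 232, 238 and 251 were peaks throughout early log and in no mid log library, and 120, 183, 232, 238, 251 and 339 throughout early log and in no late log library. In the other direction, 141 and 231 were peaks throughout mid log and in no early log library, and 121, 126, 141, 231 and 319 throughout late log and in no early log library. Positions 120 and 220 separated mid log from late log, and 121, 319 and 350, the last position of the region, separated late log from mid log. Among all these, 231 and 232 exclude each other by the peak rule, as do 120 and 121. The rule also needs 10 reads, so depth enters these lists. In late log replicate 3, where 1 read is 0.770 RPM, positions 183, 238 and 251 had 5.39, 3.08 and 3.08 RPM. They could not be called there whatever their shape. Of the peaks called throughout a subphase, 13 of 25 were A in early log, 14 of 24 in mid log and 18 of 26 in late log. Position 141 (A) is an example: it had 91.1, 165 and 114 RPM in early log, 143, 35.9 and 32.9 RPM in mid log and 39.9, 65.9 and 51.6 RPM in late log. It stood 1.70, 1.70 and 1.51 times above the mean of the positions up to 25 away in early log, 2.05, 2.48 and 2.72 times in mid log and 3.26, 4.55 and 5.55 times in late log.

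Farther from the start site, position 226 (U) and position 325 (U) had one low library in early log. Position 226 had 38.6, 644 and 650 RPM in early log, 452, 97.0 and 73.0 RPM in mid log and 93.8, 132 and 63.9 RPM in late log. Position 325 had 65.8, 838 and 539 RPM in early log, 540, 111 and 59.0 RPM in mid log and 122, 169 and 82.4 RPM in late log. Early log replicate 1 lay below all late log libraries at both positions, and the other early log libraries above them. In late log over early log the changes were -1.45 at 226 and -1.37 at 325 (limma adjusted p = 0.197 and 0.155). Against early log replicate 1 alone, the 1 early log library on the same run, they were 1.24 and 0.85, and without it they were -2.79 and -2.48 (limma adjusted p = 1.23e-06 and 7.14e-06).

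Positions 279 and 280, a pair of A, were among the positions with the steepest falls. Position 279 had 387, 598 and 336 RPM in early log, 166, 26.1 and 21.4 RPM in mid log and 34.9, 41.9 and 22.3 RPM in late log. Position 280 had 109, 203 and 111 RPM in early log, 27.2, 3.83 and 3.06 RPM in mid log and 4.53, 2.99 and 6.93 RPM in late log. At both positions all early log libraries lay above all others. The change at 280 was -4.05 ± 0.71 in mid log over early log and -4.61 ± 0.37 in late log over early log (SE, limma adjusted p = 0.0130 and 3.68e-05). That at 279 was -3.20 ± 0.68 and -3.70 ± 0.28 (limma adjusted p = 0.0204 and 3.29e-05). The mid log calls were lost without mid log replicate 2 or 3 (limma adjusted p between 0.0610 and 0.0839), and that at 279 also without early log replicate 2 or 3 (0.0699 and 0.0564).

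Position 336 (G) also fell in both later subphases. It had 519, 522 and 416 RPM in early log, 325, 38.3 and 42.5 RPM in mid log and 58.5, 58.1 and 26.9 RPM in late log, and its changes were -2.56 in mid log over early log (limma adjusted p = 0.0395) and -3.39 in late log over early log (limma adjusted p = 4.08e-05). The remaining positions among the 10 highest, 113 (A) and 260 (A), fell in late log against early log by 1.69 and 2.08 (limma adjusted p = 0.00109 and 1.11e-04), and their changes in mid log were -1.43 and -1.39 (limma adjusted p = 0.115 and 0.126). Position 40 (A), the shared peak nearest to the start site, had 63.4, 212 and 111 RPM in early log, 162, 31.9 and 24.8 RPM in mid log and 72.5, 95.2 and 48.5 RPM in late log. Its late over early log change of -0.71 (limma adjusted p = 0.165) was smaller in size than the region's median of -1.92. Against the positions around it, 40 stood highest in late log, at 7.68, 8.91 and 7.52 times their mean, against 3.26, 4.72 and 4.07 times in early log.

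The largest other falls in late log against early log were at 146 (G, -4.71 ± 0.54), 144 (C, -4.48 ± 0.50) and 162 (U, -3.93 ± 0.31) (SE, limma adjusted p = 1.76e-04, 1.63e-04 and 3.68e-05). Position 144 had 345, 122 and 94.0 RPM in early log, 115, 14.1 and 11.8 RPM in mid log and 9.07, 7.79 and 3.08 RPM in late log, so that its highest library was early log replicate 1. Position 196 (A), beside the peak at 195 (A), completed the 5 largest changes in mid log against early log, with -3.14 ± 0.70 (SE, limma adjusted p = 0.0231). It had 53.7, 158 and 108 RPM in early log, 33.3, 4.93 and 5.85 RPM in mid log and 9.07, 5.99 and 3.08 RPM in late log, and the mid log call was lost without early log replicate 2 or 3, or mid log replicate 2 or 3 (limma adjusted p between 0.0719 and 0.0985). For the mid log call at 232 the same 4 omissions gave limma adjusted p between 0.0534 and 0.0876.

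The last incorporated base was A at a higher share of reads than of positions in every library. A makes up 26.6% of the region's positions and held 38.6%, 36.9% and 35.2% of its reads in early log, 36.0%, 36.6% and 37.5% in mid and 40.1%, 42.0% and 40.9% in late log. The late log libraries were the highest (exact permutation p = 0.0321, adjusted over the 4 bases p = 0.0643). U, 30.9% of positions, was below its share throughout, with 22.3% ± 2.17, 21.8% ± 1.05 and 20.4% ± 0.240 of the reads in the 3 subphases in order of growth (exact permutation p = 0.286).

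C was the base that passed the test. It makes up 15.7% of positions and held 11.2%, 11.1% and 10.3% of the reads in early log, 13.3%, 13.8% and 13.3% in mid and 10.2%, 8.99% and 9.62% in late log (exact permutation p = 0.00357, adjusted p = 0.0143). The mid log libraries were the high ones. G, 26.9% of positions, held 30.0% ± 1.85, 28.0% ± 0.659 and 29.0% ± 0.372 (exact permutation p = 0.186). Without the 5 positions of the region highest by mean over all libraries, the exact p for G was 0.00714, with the highest mean in early log. Leaving out early log replicate 2 instead gave an exact p of 0.00357 for G. With each position scaled to those around it, so that a few high peaks weigh less, the exact p was 0.00357 for A (adjusted p = 0.0143), 0.00714 for C (adjusted p = 0.0143) and 0.0286 for U (adjusted p = 0.0381).

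**Figure D5:**
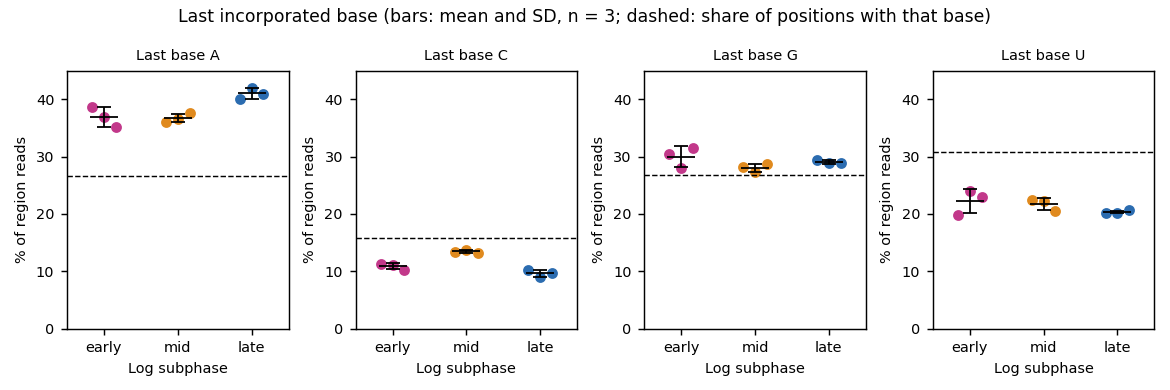
Share of the region's reads (%) that end in A, C, G or U, by log subphase, 1 point per library with the mean and SD of 3. The dashed line is the share of the region's positions with that base; A lies above it and C and U below it in all 9 libraries, and C is highest in mid log.

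Among the 35 highest positions of each library (the top 10%), 41.0%, 39.0% and 47.6% on average were A in early, mid and late log, and none of the 4 bases passed (exact permutation p between 0.111 and 0.357). These 35 positions held 52.6% ± 3.87, 52.6% ± 0.834 and 51.1% ± 1.62 of the region's reads. In the 10 bases before them, G took 30.0% on average in early log, 27.9% in mid and 29.2% in late log, and U took 30.0%, 33.6% and 31.0% (exact permutation p = 0.0286 and adjusted p = 0.0571 for both). In the 10 bases after them no base passed (exact permutation p between 0.0750 and 0.589).

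On average, profiles of one subphase resembled each other more than those of different subphases. Over the 350 positions, Spearman's rho between libraries was 0.873 ± 0.0324 within early log, 0.950 ± 0.0158 within mid log and 0.870 ± 0.0316 within late log (SD over 3 pairs each). It was 0.775 ± 0.0563 between mid and early log, 0.777 ± 0.0488 between late and early log and 0.817 ± 0.0416 between late and mid log (SD over 9 pairs each). These are descriptions across positions, which share libraries, base composition and depth and are not replicates.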

How the data were processed

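The deposited values are RPM that the authors made per library: duplicate reads were collapsed, linkers trimmed (cutadapt 3.4), reads aligned to R64 (STAR 2.7.3a) and 5′ ends counted per strand (bedtools 2.28.0), then divided by the sum over positions 1 to 6739 (T1). There are 3 tables, 1 per pair of subphases, with generic replicate columns whose subphase was read from the table they stand in. All 9 libraries had the same values in both of their tables. The authors' p-values and ratios in these tables were not used. Dividing by the smallest value gave whole reads at 99.9% to 100% of positions (tolerance 0.001).

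Shares were tested with exact two-sided permutation tests of F (3 subphases) or of the mean difference (pairs). Positions averaging 1 RPM or more, and 50-nt windows, went into limma 3.58.1 (R 4.3.3, mean-variance trend) on log2(RPM + 1), which understates changes of low positions, with Benjamini-Hochberg adjustment over the repeat and a threshold of 0.05. The limma and permutation steps were tested on simulated data. Named positions are the 10 highest by mean, peaks shared by all 9 libraries, peaks of all 3 libraries of one subphase and none of another, the 5 largest changes past the threshold per pair, the first and last position, and those at 0; position 19 and the nearby positions set in ratios were added after their values were seen. The region, lists and rules were chosen with earlier results of these data known. Alternatives covered scaling, pseudocount, filters, windows, peak definition, runs, edgeR 4.0.16 and DESeq2 1.42.0 on recovered reads, and omission of each library.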

Additional observations from a re-analysis of the deposited data

How the results depend on the processing

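The ratio of the proximal to the distal part, the first 100 positions and the last base C by reads kept their side of the threshold, and the late over early log difference in level its direction, under every alternative run. Of those that did not, the level test over 3 subphases gave exact p between 0.0357 and 0.179 when each library was left out. Mid log over early log turned to 0.0298 with the spacer reads away from the mature rRNAs as the denominator. The 50% position gave exact p = 0.411 without the 5 highest positions and between 0.0107 and 0.0857 with a library left out. For the last base by reads, leaving out a library gave exact p between 0.0143 and 0.0679 for A, 0.00357 and 0.393 for G, and 0.0143 and 0.511 for U. Other values were 0.00714 for G without the 5 highest positions and 0.0286 for U with local scaling. At the highest positions, exact p was 0.0107 for C and 0.00714 for G with the top 20%, 0.0214 for U with local scaling, and between 0.0286 and 0.50 for G with a library left out. Windows passing ranged from 0 to 6 (mid over early log) and from 0 to 2 (late over mid log) with a library left out. Positions passing in mid over early log (37) were 18 with the median log2 ratio set to 0, 13 without the trend, 13 with edgeR and 0 to 194 with a library left out. In late over early log (223) they were 136 with the run as a term, a fit in which early log replicate 1 alone stands for early log and is assumed to vary like the rest. In late over mid log (18) they were 10 with a pseudocount of 5 RPM, 11 with the median set to 0, 6 without the trend, 34 with edgeR, 47 with DESeq2 and 4 to 56 with a library left out. In the late over early log fit with the run as a term, the differences, each from early log replicate 1 alone, were positive at 78 (1.58), 80 (0.79), 226 (1.24) and 325 (0.85). With all runs pooled the late over early log change ranged from -1.89 to 0.0553 at 78 with a library left out, the highest without early log replicate 2. Peaks per library averaged 21.9 at 5 times the local median. The cause of these shifts was not tested. Same-numbered libraries did not pair: correlations of their deviations ranged from -0.47 to 0.36. With the replicate block, exact p was 0.111 for the 50% position and 0.0833 for A, and the block gave 7 positions (mid over early log), 30 positions and 1 window (late over mid log). Depth limits single positions most in late log replicate 3, with a median of 5 reads.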

Other observations

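The base that Pol I would add next also went with the level of a position. With each position set against the mean of those up to 25 away, the 94 positions before a G averaged 1.84, 1.23 and 1.14 in the early log libraries, 0.963, 0.876 and 0.859 in mid log and 0.882, 0.865 and 0.880 in late log. Every early log library lay above 1 and every other below it, and early log replicate 1 was the highest. The peaks at 232 and 102, named above, both come before a G and weigh heavily in these averages. On the same scale 232 stood at 57.0, 21.6 and 12.8 in the early log libraries. It stood at 7.42, 4.93 and 3.85 in mid log and 5.99, 4.14 and 4.26 in late log. Position 102 stood at 17.2, 6.86 and 3.94 in early log. Whether a following G goes with the level at positions in general was not tested. The 93 positions before an A averaged 0.810, 0.908 and 0.890 in early log, 0.952, 1.01 and 1.01 in mid log and 1.07, 1.09 and 1.06 in late log, with no overlap between subphases. Positions before a C, 55 in number, were the lowest in every library, between 0.464 and 0.777, and positions before a U lay between 1.08 and 1.42. No test was run on these values, which were chosen after they were seen.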
